A study of Mus musculus with 12 samples.

Results

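Losartan is an antagonist of the angiotensin II type 1 receptor, and the data described here compare the kidneys of Alport mice treated with losartan with those of Alport mice given vehicle. The comparison covers 6 of the 12 samples of the series, 3 titled as Alport mice treated with losartan and 3 as Alport mice treated with vehicle, chosen by these titles alone. The other 6 samples, 3 wild-type kidneys with vehicle and 3 Alport kidneys with metformin, served as side references. RNA of whole kidney from mice killed at 16 weeks of age was hybridised to Affymetrix Clariom S arrays, 1 array per sample, and every one of 22206 probe sets has a log2 signal in every sample.

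All Alport samples, with either drug or with vehicle, carry the same nonsense allele of Col4a5 (G5X, hemizygous), so no group shows the drug in a healthy kidney. Col4a5 encodes the alpha 5 chain of type IV collagen, which the glomerular basement membrane needs. The losartan mice received the drug in drinking water at 125 µg/mL from 6 to 11 weeks of age and at 250 µg/mL from 12 weeks on. The metformin mice received metformin at 2.5 mg/mL from 6 to 11 weeks and at 5 mg/mL from 12 weeks on. The dosing label runs to 20 weeks although the mice were killed at 16 weeks, and it calls losartan co-administered, while the sample titles name losartan and metformin as separate groups. The animals were taken as the titles name them. A hemizygous allele of Col4a5, an X-linked gene, means that the Alport mice were male. The labels do not give the sex of the wild-type mice. They also do not say what the vehicle was, which strain the mice were, or whether each sample is 1 animal. The p-values therefore speak only of the variation among the samples at hand, which may be technical.

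Angiotensin II is made by angiotensin-converting enzyme and acts mainly through the type 1 receptor on vessels, mesangium, fibroblasts and tubules. It constricts efferent arterioles, drives sodium retention, and induces matrix genes, growth factors and chemokines. Blockers of the receptor are a standard treatment of Alport kidney disease, in which a faulty glomerular basement membrane leads to proteinuria, tubular loss, inflammation and interstitial fibrosis.

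In overview, losartan-treated kidneys had lower levels of genes of scar matrix, contractile cells, proliferation, tubular injury and macrophages, and higher levels of genes of the proximal tubule, its organic ion carriers, cholesterol synthesis and amino acid breakdown. Levels are given as log2 signals for samples 1, 2 and 3 of a group. Changes are losartan minus vehicle on the log2 scale, ± SE, from limma with Benjamini-Hochberg adjustment over all 22206 probe sets. A gene is said to have risen or fallen only at an adjusted p under 0.05. By that rule 1755 probe sets changed (7.9% of those tested), of which 842 rose (3.79%) and 913 fell (4.11%). The median change was -1.03 among the 913 that fell and 0.84 among the 842 that rose. A fall of at least 4-fold was seen for 53 probe sets and a rise of that size for 20. The direction split depends on scaling. After centring each sample on its own median, 1238 probe sets rose and 724 fell, and the median change of all probe sets was 0.11 instead of 0.01. A rule of unadjusted p under 0.05 with at least a 2-fold change called 799 (3.6%). The 3 losartan samples lay above all 3 vehicle samples at 2613 probe sets (11.8%) and below them at 2519 (11.3%), which is the background for every statement on overlap. The counts for gene classes stand against the shares of all probe sets that rose (3.79%) and fell (4.11%), and nothing is read from them as particular to a class.

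**Figure D1:**
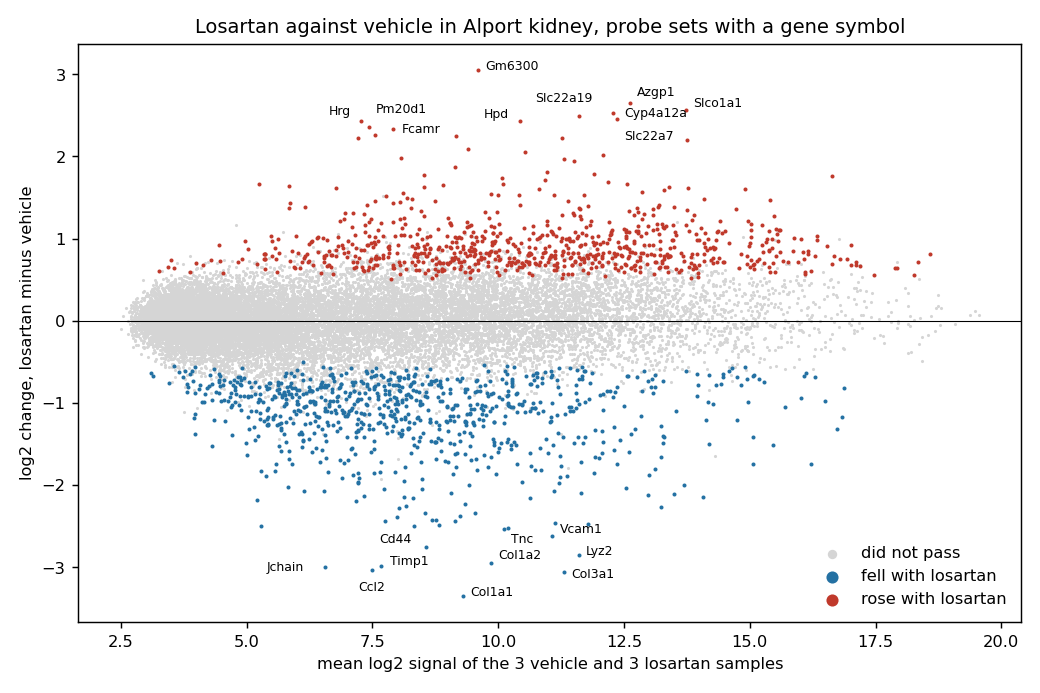
Change with losartan (log2, losartan minus vehicle, y axis) against the mean log2 signal of the 6 Alport samples with losartan or vehicle (x axis) for each probe set with a gene symbol. Blue points fell, red points rose and grey points did not pass; the named points are the 10 largest falls and 10 largest rises whose samples do not overlap, led by Col1a1 at -3.34 and Gm6300 at 3.05.

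The arrays of a group were alike and the number of arrays, 3 per group, sets the precision. Correlations over all probe sets were 0.993 to 0.994 within losartan, 0.990 to 0.991 within vehicle and 0.983 to 0.991 between them. Single samples carried many of the calls. With losartan sample 2 left out 716 probe sets changed, with vehicle sample 1 left out 737, with losartan sample 3 left out 959 and with vehicle sample 3 left out 1180. The remaining omissions gave 1496 (losartan sample 1) and 2073 (vehicle sample 2). None of the omissions turned the sign of a called change. That could hardly come out otherwise, since the samples did not overlap for 905 of the 913 falls and 835 of the 842 rises. The mutated gene itself did not separate the groups compared. Col4a5 read 5.06, 5.83 and 5.40 in wild type, 4.44, 4.13 and 4.97 with vehicle and 4.64, 4.24 and 4.09 with losartan, a change of -0.19 ± 0.23 with the drug (adjusted p = 0.725). In whole kidney, fewer cells of a type and less RNA per cell cannot be told apart, and this holds for every gene group below.

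**Figure D2:**
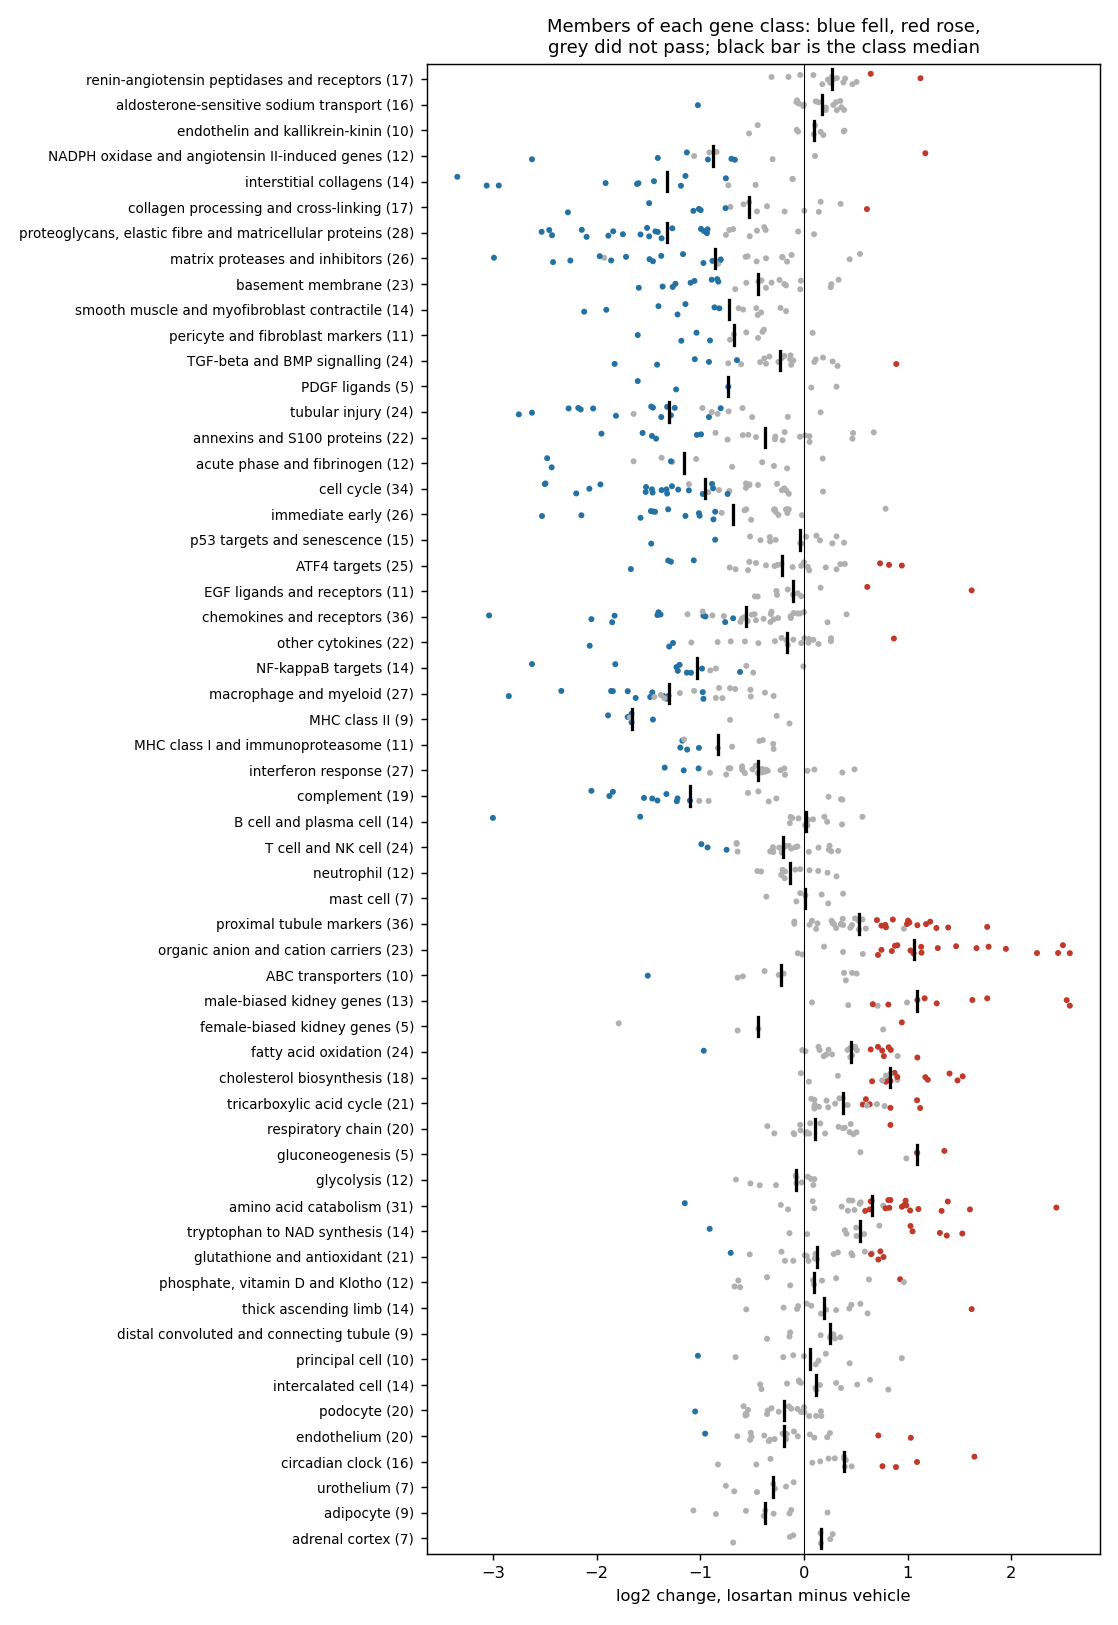
Change with losartan (log2, losartan minus vehicle, x axis) of every measured member of each gene class, with the number measured in brackets. Blue members fell, red rose, grey did not pass, and the black bar is the class median, which lies at -1.32 for interstitial collagens and at 1.06 for organic ion carriers.

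Among genes of the renin-angiotensin system, the converting enzyme rose while the receptor that losartan blocks did not pass the test. Of 17 measured members 2 rose and none fell, with a median change of 0.27. Ace, which converts angiotensin I to angiotensin II and in the kidney lines the proximal tubule brush border, read 12.16, 12.99 and 12.65 with vehicle and 13.70, 13.81 and 13.66 with losartan. The losartan samples all lay above the vehicle samples and below the wild-type ones at 14.46, 13.98 and 14.47, and the rise was 1.12 ± 0.22 (adjusted p = 0.0056). Mme (neprilysin), a brush border peptidase that degrades angiotensin peptides, rose by 0.64 ± 0.19 (adjusted p = 0.0461). That call was lost without losartan sample 2 or 3 or any 1 vehicle sample (adjusted p 0.0219 to 0.187 over all alternatives). It was also lost with quantile normalization, with replicate number as a block and in a fit of the 6 samples alone. This leaves Ace as the 1 riser of the class.

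Agtr1a, the main type 1 receptor gene in the mouse kidney, read 12.19, 11.68 and 11.65 with vehicle, 11.76, 12.32 and 12.29 with losartan and 12.87, 12.55 and 12.44 in wild type. The drug groups overlapped, at a difference of 0.28 ± 0.22 (adjusted p = 0.537). Its paralog Agtr1b differed by 0.18 ± 0.22 and Mas1, the receptor of angiotensin 1-7, by 0.47 ± 0.22, neither past the threshold. The type 2 receptor Agtr2 lay under every sample's lower quartile, so no fold is given. Agt, the angiotensinogen gene, read 13.01, 12.63 and 12.86 with vehicle and 12.54, 12.47 and 12.55 with losartan, with no overlap but a difference of only -0.31 ± 0.19 (adjusted p = 0.39). The aminopeptidases Enpep and Anpep, which trim angiotensin peptides, differed by 0.23 ± 0.18 and 0.51 ± 0.21.

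Downstream of the receptor, aldosterone-sensitive sodium transport genes and endothelin and kinin genes mostly did not pass. Of 16 members of the first class 1 fell and none rose. That member was Fxyd4, a collecting duct regulator of the sodium pump, at -1.02 ± 0.22 (adjusted p = 0.0112), a call lost without vehicle sample 1 (adjusted p 0.00577 to 0.0665 over all alternatives). None of the 10 endothelin and kallikrein-kinin genes passed in either direction, with Edn1 at -0.53 ± 0.28 and the endothelin receptor Ednrb at -0.45 ± 0.19.

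Genes that angiotensin II is known to induce fell in part. Of 12 NADPH oxidase and angiotensin II-induced genes 6 fell and 1 rose, with a median of -0.88. Ccn2 (connective tissue growth factor) read 11.88, 12.13 and 12.84 with vehicle and 11.10, 10.93 and 10.59 with losartan. The losartan samples straddled the wild-type 10.68, 10.69 and 10.64, vehicle sample 3 was the highest, and Ccn2 fell by 1.41 ± 0.22 (adjusted p = 0.00156). Vcam1, an adhesion molecule for leukocytes, fell by 2.62 ± 0.53 (adjusted p = 0.00684). Nox4, the oxidase subunit most typical of proximal tubule, went the other way, from 12.91, 13.60 and 12.93 with vehicle to 13.89, 14.46 and 14.60 with losartan and 14.57, 14.28 and 13.86 in wild type. It rose by 1.17 ± 0.25 (adjusted p = 0.0105), a call lost without losartan sample 2, losartan sample 3 or vehicle sample 1 (adjusted p 0.0041 to 0.0583 over all alternatives). Without losartan sample 2, vehicle sample 1 or vehicle sample 3, the number of members that fell dropped to 2, 3 and 3.

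Col1a1 and Col3a1, the main collagens of scar tissue, had the largest falls of all called probe sets with a gene symbol and no overlap. Of 14 interstitial collagen genes 10 fell and none rose, with a median change of -1.32. Col1a1, a chain of type I collagen, read 10.71, 11.01 and 11.21 with vehicle and 7.92, 7.16 and 7.82 with losartan. Losartan sample 2 was the lowest of the drug group, all 3 lay above the wild-type 5.42, 5.78 and 5.52, and Col1a1 fell by 3.34 ± 0.38, a 10.2-fold difference (adjusted p = 0.000254). Col3a1, the type III collagen chain, went from 12.87, 12.83 and 12.80 to 10.35, 9.07 and 9.90, against 6.81, 6.89 and 6.43 in wild type. It fell by 3.06 ± 0.32 and still stood 3.06 ± 0.32 above wild type (adjusted p for that difference = 0.000125). Col1a2, the partner chain of Col1a1, fell by 2.94 ± 0.31, and Col6a3, of the beaded type VI microfibrils, by 1.61 ± 0.25.

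Enzymes that fold and cross-link collagen fell in part. In this class 6 of 17 fell and 1 rose, with a median of -0.53. Lox, the lysyl oxidase that starts cross-linking, read 9.31, 8.54 and 9.68 with vehicle, 6.96, 7.01 and 6.73 with losartan and 4.90, 5.32 and 5.24 in wild type. Its drug samples lay between both other groups, and it fell by 2.28 ± 0.28 (adjusted p = 0.000427). Loxl1, its elastin-directed relative, fell by 1.49 ± 0.20. Pcolce, which speeds the removal of the C-terminal procollagen propeptide, fell by 1.01 ± 0.18 and the collagen chaperone Serpinh1 by 1.07 ± 0.22. The riser was P4ha2, a prolyl hydroxylase subunit, at 0.61 ± 0.18 (adjusted p = 0.0489), a call lost without losartan sample 2 or 3 or vehicle sample 1 or 3 (adjusted p 0.0194 to 0.202 over all alternatives). A trended robust prior, replicate number as a block and a fit of the 6 samples alone lost that call too.

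Proteoglycans, elastic fibre and matricellular genes fell in most cases. Of 28 measured 19 fell and none rose, with a median of -1.32. Fn1 (fibronectin) read 12.50, 12.06 and 12.49 with vehicle, 10.15, 9.68 and 9.85 with losartan and 8.21, 8.30 and 8.12 in wild type. Fbln1 (fibulin 1), which binds fibronectin, went from 9.82, 9.98 and 10.56 to 8.17, 8.11 and 7.79. Both groups were tight and well apart for these genes, and Fn1 fell by 2.46 ± 0.32 and Fbln1 by 2.10 ± 0.23. Tnc (tenascin C) fell by 2.53 ± 0.35 and Thbs2 (thrombospondin 2) by 2.43 ± 0.31. Mgp, the matrix Gla protein, fell by 2.14 ± 0.28 and Sparc, a collagen-binding matricellular protein, by 1.75 ± 0.23. The count stayed between 17 and 20 when any 1 of the 6 samples was left out.

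Among matrix proteases and their inhibitors 14 of 26 fell and none rose. Timp1, an inhibitor of metalloproteinases, read 9.81, 8.67 and 9.02 with vehicle, 6.79, 5.50 and 6.24 with losartan and 3.54, 4.20 and 3.24 in wild type. Vehicle sample 1 was the highest and the groups did not overlap, and Timp1 fell by 2.99 ± 0.46 (adjusted p = 0.00129). Mmp14, the membrane collagenase that activates Mmp2, fell by 2.42 ± 0.30, Timp2 by 1.72 ± 0.24 and the aggrecanase Adamts4 by 1.49 ± 0.22. Timp3, the inhibitor that binds to the matrix, differed by 0.54 ± 0.16 in the opposite direction (adjusted p = 0.0516), which passed after centring on sample medians, with the dimmest probe sets left out, with a trended robust prior and without vehicle sample 2 (adjusted p 0.0127 to 0.191 over all alternatives).

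Basement membrane genes fell in part. Of 23 measured 9 fell and none rose, with a median of -0.44. Nid1, which links laminin to type IV collagen, read 12.22, 11.77 and 11.65 with vehicle and 10.58, 10.41 and 10.56 with losartan, next to 10.26, 10.52 and 10.03 in wild type, and it fell by 1.36 ± 0.19 (adjusted p = 0.000684). Col18a1, the endostatin precursor, fell by 1.59 ± 0.23, the perlecan gene Hspg2 by 1.09 ± 0.18 and the laminin chain Lama2 by 1.27 ± 0.23. Npnt (nephronectin) differed by -0.31 ± 0.25, within the spread of the samples.

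Contractile genes of smooth muscle and myofibroblasts fell as 7 of 14, with none up and a median of -0.72. Many of these genes are targets of serum response factor, which binds the CArG box (CC, then 6 bases of A or T, then GG). In the RefSeq promoter windows (GRCm38.p6, 250 bases before the start) a CArG box was found in 1 of the 11 contractile genes that have a window (9.09%), against 439 of 27025 genes (1.62%). The pattern is its own reverse complement, so a search of either strand finds the same places, although the letters of a match can differ between strands. A match is a description of letters and not a bound site. The one window with a match belongs to Myl9, a regulatory light chain of smooth muscle myosin, and is shown because Myl9 fell. It lies at chr2:156775214-156775463 on the + strand, with the box in capitals at bases -161 to -152 from the start.
Myl9: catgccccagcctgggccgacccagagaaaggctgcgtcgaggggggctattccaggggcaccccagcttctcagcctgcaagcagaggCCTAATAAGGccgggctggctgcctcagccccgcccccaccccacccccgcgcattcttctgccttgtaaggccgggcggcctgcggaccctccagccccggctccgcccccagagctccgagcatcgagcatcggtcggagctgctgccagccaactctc

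Myl9 read 9.98, 10.03 and 9.87 with vehicle, 8.89, 8.98 and 8.35 with losartan and 8.86, 8.43 and 8.94 in wild type. Acta2, the smooth muscle actin that marks myofibroblasts, read 14.15, 13.57 and 14.39, 11.33, 12.16 and 12.26 and 11.12, 10.04 and 10.36 in the same order. Losartan sample 1 was the lowest of its group for Acta2, and for both genes the drug samples lay below every vehicle sample. Acta2 fell by 2.12 ± 0.32, Tagln (transgelin) by 1.91 ± 0.24, Tpm1 (a tropomyosin) by 1.40 ± 0.22 and Myl9 by 1.22 ± 0.19. The window of Acta2 holds no match to this strict pattern, which says only that these letters are not in it. Boxes that depart from the pattern by a letter were not searched for.

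Pericyte and fibroblast markers fell as 4 of 11, but the count rests on few samples. It was 2 without losartan sample 1, 1 without losartan sample 2 and 1 without vehicle sample 3. Pdgfrb, the PDGF receptor of pericytes and fibroblasts, fell in all of these settings. It read 11.99, 11.62 and 11.75 with vehicle and 10.42, 10.09 and 10.04 with losartan, and fell by 1.60 ± 0.23 (adjusted p = 0.000725). In the list of PDGF ligands and receptors 3 of 5 fell, and 1 without vehicle sample 1. Pdgfb, the ligand that recruits pericytes, fell by 1.23 ± 0.26 (adjusted p = 0.00848), a call lost without vehicle sample 1 (adjusted p 0.0046 to 0.0511 over all alternatives), and Pdgfc differed by 0.31 ± 0.26.

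In TGF-beta and BMP signalling 5 of 24 fell and 1 rose. Tgfb1, the main profibrotic ligand, read 12.48, 11.35 and 12.19 with vehicle, 10.83, 10.22 and 10.72 with losartan and 9.67, 10.03 and 9.74 in wild type. It fell by 1.42 ± 0.29 (adjusted p = 0.00777), but not without losartan sample 2 (adjusted p 0.00152 to 0.0507 over all alternatives). The receptor Tgfbr2 fell by 1.05 ± 0.21 and the secreted BMP antagonist Grem1 by 1.83 ± 0.36. Bmp7, a ligand that Gremlin binds, went the other way, from 8.29, 8.25 and 8.04 with vehicle to 8.89, 9.49 and 8.87 with losartan. It rose by 0.89 ± 0.19 (adjusted p = 0.00929), again not without losartan sample 2 (adjusted p 0.00593 to 0.0565 over all alternatives). Smad4, the shared signal transducer, differed by -0.13 ± 0.18. The number that fell was 2 without losartan sample 2 and 3, 3 and 3 without losartan sample 3, vehicle sample 1 and vehicle sample 3.

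**Figure D3:**
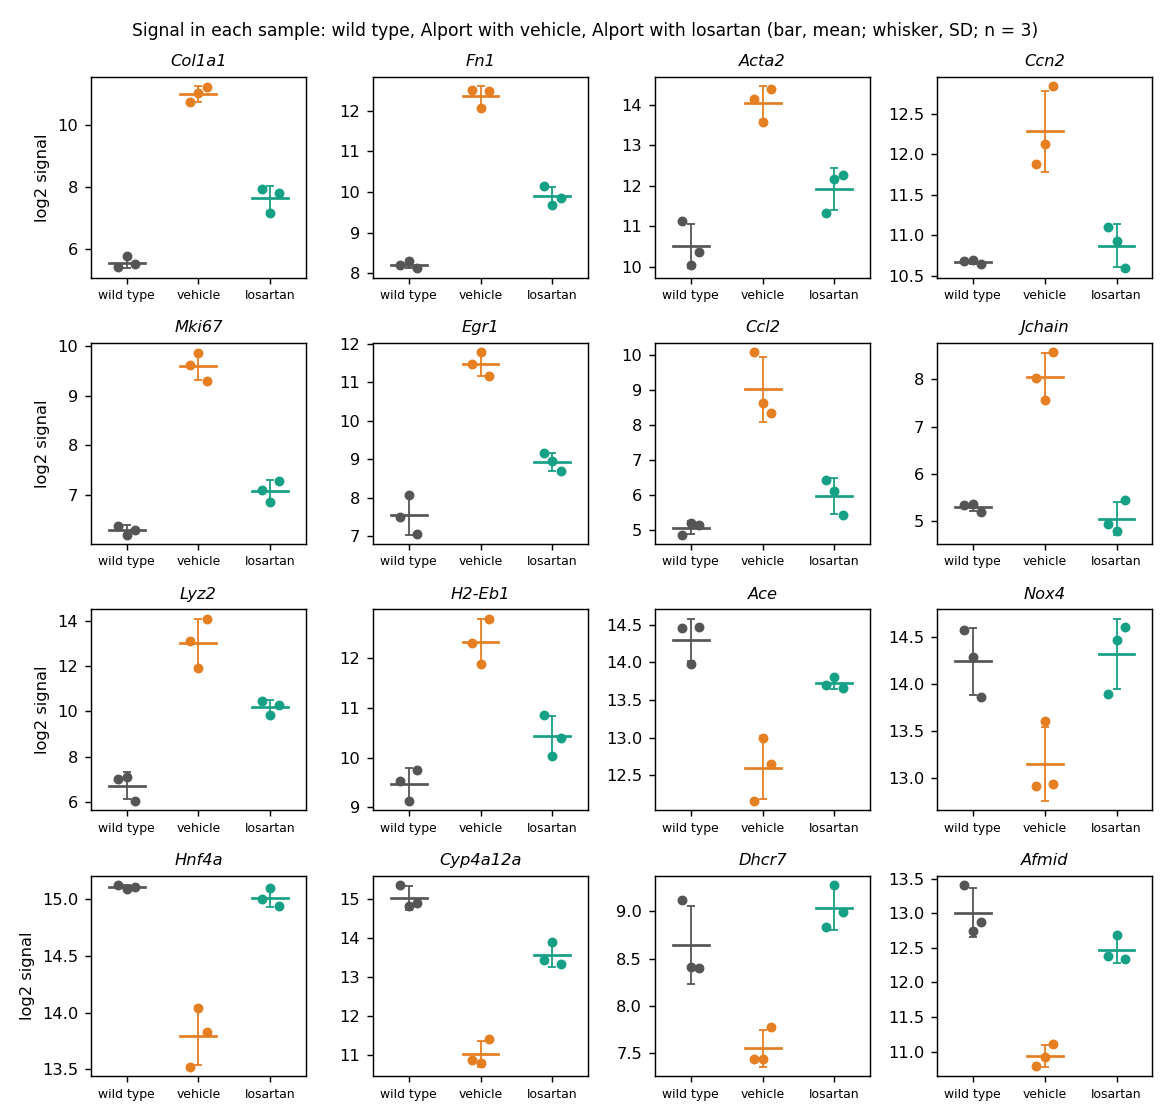
Log2 signal (y axis) of 16 genes in the 3 wild-type, 3 vehicle and 3 losartan samples, with the mean as a bar and the SD as a whisker. The matrix, proliferation and immune genes lie highest with vehicle and the tubule genes lowest there, as for Col1a1 (losartan 7.92, 7.16 and 7.82) and Hnf4a (losartan 15.00, 15.10 and 14.94).

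Markers of tubular injury fell as 15 of 24 with none up and a median of -1.30. Vim (vimentin), an intermediate filament of injured tubule cells and of stroma, read 13.32, 13.23 and 14.11 with vehicle, 11.80, 11.32 and 11.44 with losartan and 9.60, 9.19 and 9.70 in wild type. Sox9, a transcription factor of repairing tubules, read 9.76, 8.83 and 9.59, 7.29, 7.47 and 6.96 and 5.58, 6.74 and 6.34. Drug and vehicle samples did not overlap for either gene, and Vim fell by 2.03 ± 0.30 and Sox9 by 2.15 ± 0.36. The urokinase receptor Plaur fell by 1.46 ± 0.29 and the Tweak receptor Tnfrsf12a by 1.81 ± 0.36. Cd44, the hyaluronan receptor, read 10.62, 8.81 and 10.41 with vehicle and 6.94, 7.59 and 7.06 with losartan. It fell by 2.75 ± 0.56 (adjusted p = 0.00749), with vehicle sample 2 the lowest of its group, a call lost with a trended robust prior (adjusted p 0.00219 to 0.0511 over all alternatives). Without losartan sample 2, losartan sample 3 or vehicle sample 1 the class count was 9, 8 and 8.

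Annexins and S100 proteins fell as 6 of 22, with 3 left when losartan sample 3 or vehicle sample 1 was omitted. S100a6 fell by 1.95 ± 0.30 and Anxa2, a membrane-binding partner of plasminogen activation, by 1.56 ± 0.29. Of 12 acute phase and fibrinogen genes 3 fell, with 5 without vehicle sample 2 and 1 without any 1 of losartan samples 2 and 3 and vehicle samples 1 and 3. Serpina3n, a secreted protease inhibitor, held throughout and fell by 2.43 ± 0.42 (adjusted p = 0.0028).

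Many proliferation genes fell. Of 34 cell cycle genes 19 fell and none rose, with a median of -0.95, and the count was 14 to 18 with any 1 sample left out. Mki67, the classic proliferation antigen, read 9.61, 9.85 and 9.29 with vehicle, 7.10, 6.86 and 7.29 with losartan and 6.39, 6.21 and 6.31 in wild type. The groups were tight, and Mki67 fell by 2.50 ± 0.29, a 5.66-fold difference (adjusted p = 0.000254). Ccnb2, a mitotic cyclin, fell by 1.96 ± 0.23 and the mitotic kinase Plk1 by 2.20 ± 0.36. Bub1b, a spindle checkpoint kinase, fell too (adjusted p = 0.000254), with no fold given because its losartan mean lay under every sample's lower quartile. Pcna, the replication clamp, fell by 0.74 ± 0.19 (adjusted p = 0.0226), a call lost without losartan sample 1 or 2 or vehicle sample 1 or 3 (adjusted p 0.00869 to 0.0981 over all alternatives). Measured cell cycle genes above wild type numbered 28 with vehicle and 0 with losartan.

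Immediate early genes, which serum and stress switch on within minutes, fell as 12 of 26 with none up. Egr1, a zinc finger factor, read 11.46, 11.77 and 11.15 with vehicle, 9.16, 8.95 and 8.69 with losartan and 7.49, 8.06 and 7.06 in wild type. Its relative Egr2 read 9.20, 9.69 and 8.70, 7.05, 7.12 and 6.98 and 5.44, 5.95 and 5.88. All drug samples lay between the other groups' samples for both, and Egr1 fell by 2.53 ± 0.34 and Egr2 by 2.15 ± 0.28. Myc fell by 1.48 ± 0.25 and Ccn1, a matricellular early gene, by 1.58 ± 0.27. Dusp1, a phosphatase of MAP kinases, differed in the other direction at 0.79 ± 0.26 (adjusted p = 0.0785), which passed after centring (adjusted p 0.0456 to 0.297 over all alternatives). A CArG box was found in a window of 3 of the 21 early genes that have one (14.3%), among them Egr2, which has several windows. Its boxes were CCTTTTTTGG at chr10:67537494-67537503 and CCATATATGG at chr10:67537797-67537806, on the + strand and in different windows. Not every Egr2 window held a match. The other genes were Dusp5 and Zfp36, which did not pass (adjusted p = 0.0552 and 0.969). The class count dropped to 5 without losartan sample 2 and to 7 without vehicle sample 1.

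Stress programmes were mixed. Of 25 ATF4 targets 4 fell and 3 rose. Nupr1, a stress-induced chromatin protein, read 12.78, 12.58 and 13.13 with vehicle and 11.39, 11.11 and 10.98 with losartan, and fell by 1.67 ± 0.19 (adjusted p = 0.000254). The amino acid transporter Slc7a5 fell by 1.28 ± 0.24, while Shmt2, the mitochondrial serine hydroxymethyltransferase, rose by 0.94 ± 0.17 (adjusted p = 0.00366). Without losartan sample 2 the counts were 2 down and 1 up, and without vehicle sample 1 1 rose. Of 15 p53 targets 2 fell, Cdkn1a by 1.47 ± 0.40 and Btg2 by 0.86 ± 0.22, and neither held when losartan sample 3, vehicle sample 1 or vehicle sample 3 was left out (for Cdkn1a, adjusted p 0.02 to 0.147 over all alternatives). Btg2 was also lost without losartan sample 2 (adjusted p 0.0111 to 0.113 over all alternatives), and Cdkn1a without losartan sample 1 or with a trended robust prior.

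Macrophage genes were lower with losartan. Of 27 macrophage and myeloid markers 13 fell and none rose, with a median of -1.31. Lyz2 (lysozyme) read 13.09, 11.93 and 14.06 with vehicle, 10.44, 9.84 and 10.26 with losartan and 7.0, 7.11 and 6.05 in wild type. Vehicle sample 3 was the highest and vehicle sample 2 the lowest of the untreated Alport group, and Lyz2 fell by 2.85 ± 0.49 (adjusted p = 0.00253). Mrc1, the mannose receptor, fell by 2.34 ± 0.46 and the Fc receptor chain Fcer1g by 1.31 ± 0.26. The number that fell moved with single samples of both groups. The count was 21 without vehicle sample 2, 4 without vehicle sample 1, 5 without vehicle sample 3, 3 without losartan sample 2 and 6 without losartan sample 3.

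Chemokines fell as 11 of 36, with 7 left without vehicle sample 1 or vehicle sample 3. Ccl2, which recruits monocytes, read 10.08, 8.62 and 8.36 with vehicle, 6.42, 6.11 and 5.42 with losartan and 4.87, 5.19 and 5.16 in wild type. Vehicle sample 1 stood highest, and Ccl2 fell by 3.04 ± 0.40, which is 8.21-fold (adjusted p = 0.00053). Cxcl10, an interferon-induced T cell attractant, fell by 2.05 ± 0.35, Cxcl16 by 1.41 ± 0.23 and Ccl17 by 1.38 ± 0.20. Cxcl12, made by stroma in the resting kidney, differed by -0.50 ± 0.28. Of 22 other cytokines 3 fell and 1 rose, with 5 falling without vehicle sample 2. Csf1, the macrophage growth factor, fell by 2.07 ± 0.39 (adjusted p = 0.005) and Lif, an interleukin 6 family cytokine, by 1.30 ± 0.27. Il15, a lymphocyte growth factor, rose by 0.87 ± 0.24 (adjusted p = 0.0335), a call lost without losartan sample 1 or 3 or vehicle sample 1 or 3 (adjusted p 0.0121 to 0.166 over all alternatives). Replicate number as a block and a fit of the 6 samples alone lost that call too.

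NF-kappaB targets fell as 9 of 14 with a median of -1.04. Birc3, an inhibitor of apoptosis, fell by 1.82 ± 0.37 (adjusted p = 0.00745), and Vcam1 from 13.16, 11.75 and 12.25 with vehicle to 9.75, 9.74 and 9.80 with losartan. The count was 2 without vehicle sample 1, 3 without losartan sample 2, and 4 without losartan sample 3 or vehicle sample 3. Complement genes fell as 10 of 19, or 4, 3, 3 and 5 without losartan samples 2 and 3 and vehicle samples 1 and 3 in turn. Serping1, the C1 inhibitor, read 14.03, 13.38 and 14.39 with vehicle and 12.39, 12.16 and 11.62 with losartan, and C7, of the lytic pore, fell by 1.54 ± 0.31. Serping1 fell by 1.88 ± 0.27 (adjusted p = 0.000767) and its drug samples were clear of the vehicle samples.

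Antigen presentation genes fell in part. In MHC class II 5 of 9 fell, with a median of -1.66. H2-Eb1, a class II beta chain, read 12.29, 11.87 and 12.79 with vehicle, 10.85, 10.04 and 10.39 with losartan and 9.52, 9.13 and 9.75 in wild type, and fell by 1.89 ± 0.39 (adjusted p = 0.00783), and the peptide loader H2-DMb1 fell by 1.46 ± 0.30. The class II count was 2 without losartan sample 2 or vehicle sample 1 and 3 without losartan sample 3 or vehicle sample 3. Of 11 class I and immunoproteasome genes 4 fell, and B2m (beta 2 microglobulin), among them, fell by 1.17 ± 0.29 (adjusted p 0.00364 to 0.078 over all alternatives). None of the class I genes passed without losartan sample 2, losartan sample 3 or vehicle sample 3, and 1 did without vehicle sample 1. Interferon response genes fell as 3 of 27, which is 5 without losartan sample 1 or vehicle sample 2, with Irf1 down by 1.34 ± 0.28 and Bst2 by 1.16 ± 0.24.

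The smallest p-value of the comparison belonged to Jchain, the joining chain of secreted IgA and IgM. It read 8.03, 7.57 and 8.57 with vehicle, 4.94, 4.79 and 5.44 with losartan and 5.34, 5.36 and 5.20 in wild type. The drug samples overlapped the wild-type ones, and Jchain fell by 3.00 ± 0.28 (adjusted p = 0.000117). In its class, B cell and plasma cell genes, only Sdc1 fell as well, at -1.58 ± 0.26, so 2 of 14 fell and none rose, with a class median of 0.02. Sdc1 (syndecan 1) is also made by epithelium, and the B cell receptor chain Cd79a differed by 0.37 ± 0.17. Summed over the 14 markers on the linear scale, the log2 level ranged from 14.4 to 15.2 with vehicle and 14.7 to 15.1 with losartan. Such a sum is set by the brightest members, of which Xbp1 had the highest mean, and says little of the others. Of the 14 markers 11 had means under every sample's median, and 6 under every sample's lower quartile.

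T cell and NK cell markers fell as 3 of 24, Icos, Il7r and Cd3e, with at most 1 left without losartan sample 1, 2 or 3 or vehicle sample 1 or 3. Their highest adjusted p over the alternatives run was 0.0941, 0.138 and 0.146. Cd4 differed by -0.08 ± 0.22 and Cd8a by -0.65 ± 0.30, of which Cd8a passed without vehicle sample 2 (adjusted p 0.0266 to 0.614 over all alternatives). No neutrophil marker of 12 and no mast cell marker of 7 passed in either direction. All 12 and all 7 of these had means under every sample's median, 7 and 4 of them under every lower quartile. Of the 24 T cell and NK cell markers 23 lay under every median and 7 under every lower quartile. At such low signal a marker that does not pass does not show that the cells were unchanged.

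Proximal tubule genes rose in part. Of 36 markers 14 rose and none fell, with a median of 0.53. Hnf4a, the transcription factor that keeps proximal tubule identity, read 13.52, 14.04 and 13.83 with vehicle, 15.00, 15.10 and 14.94 with losartan and 15.13, 15.09 and 15.11 in wild type. Drug and wild-type samples were close together and apart from all vehicle samples, and Hnf4a rose by 1.22 ± 0.16 (adjusted p = 0.00053). Slc7a13, an aspartate, glutamate and cystine carrier of the S3 segment, read 15.21, 16.09 and 15.97 with vehicle and 17.45, 17.81 and 17.31 with losartan. Slc7a13 rose by 1.77 ± 0.24, the amino acid carrier Slc6a20b by 1.28 ± 0.18 and the glutamate carrier Slc1a1 by 1.00 ± 0.18. Kap, an abundant androgen-regulated protein of the tubule, differed by 0.08 ± 0.14. The count was 7 without losartan sample 2 and 7 without vehicle sample 1.

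Organic anion and cation carriers, which move drugs, urate and bile acids across the tubule cell, formed the class with the highest share of rises. Of 23 measured 18 rose and none fell, with a median of 1.06, and 13 to 18 rose with any 1 sample left out. Slco1a1 read 11.77, 13.14 and 12.44 with vehicle, 15.31, 15.05 and 14.68 with losartan and 15.91, 15.02 and 15.83 in wild type. Slc22a4, a carrier of carnitine and ergothioneine, read 8.85, 9.26 and 9.67, 10.57, 11.24 and 10.96 and 11.19, 11.34 and 11.33. Vehicle sample 1 was the lowest of all for Slco1a1, and losartan samples lay above vehicle samples for both. The rises were 2.56 ± 0.39 for Slco1a1, 2.50 ± 0.40 for Slc22a19, 1.95 ± 0.32 for the prostaglandin carrier Slc22a22 and 1.66 ± 0.24 for Slc22a4. Slc22a7 rose by 2.45 ± 0.52 (adjusted p = 0.00882), a call lost with a trended robust prior (adjusted p 0.0041 to 0.0678 over all alternatives). Among 10 ABC transporters 1 fell and none rose. The cholesterol exporter Abca1 fell by 1.51 ± 0.34 (adjusted p = 0.0126), but not without losartan sample 2 or vehicle sample 1 (adjusted p 0.00278 to 0.0744 over all alternatives), and without vehicle sample 2 the class count was 2.

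Male-biased kidney genes, which depend on androgens in the mouse, rose as 9 of 13 with a median of 1.09, or 5 without losartan sample 2 or vehicle sample 1. Several are also tubule carriers of the classes above. Cyp4a12a, which makes the vasoactive lipid 20-HETE, read 10.88, 10.79 and 11.40 with vehicle, 13.43, 13.90 and 13.34 with losartan and 15.36, 14.81 and 14.89 in wild type. It rose by 2.53 ± 0.33 (adjusted p = 0.000519) and remained below all wild-type samples. Its near-identical copy Cyp4a12b can share probe signal, so the value may be that of both. Cyp2j13, an epoxygenase, rose by 1.16 ± 0.18. Of 5 female-biased genes 1 rose, Cyp2a4 at 0.94 ± 0.20, a call lost without vehicle sample 1 (adjusted p 0.00198 to 0.0593 over all alternatives).

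Azgp1, a zinc-binding lipid-mobilising glycoprotein, had a rise of 2.66 ± 0.33 (adjusted p = 0.000437), from 10.58, 11.26 and 12.04 with vehicle to 13.90, 14.07 and 13.88 with losartan. Hrg (histidine-rich glycoprotein) rose by 2.43 ± 0.32, and its losartan samples at 8.13, 8.62 and 8.74 lay below the wild-type 9.95, 10.05 and 9.95. Fcamr, a receptor for IgA and IgM, went from 6.35, 6.85 and 7.04 to 9.07, 8.86 and 9.30, a rise of 2.33 ± 0.26 (adjusted p = 0.000254). The wild-type samples read 9.32, 10.21 and 10.09, above every drug sample. Pm20d1, which makes N-acyl amino acids, rose by 2.36 ± 0.25. Gm6300, a predicted gene, had the largest rise and an uncertain one. It went from 6.87, 9.67 and 7.70 to 11.65, 11.29 and 10.46, with vehicle sample 2 close to the drug group, and its 3.05 ± 0.89 (adjusted p = 0.0466) was lost without any 1 losartan sample or without vehicle sample 1 or 3 (adjusted p 0.00877 to 0.206 over all alternatives). Array weights, a trended robust prior and replicate number as a block lost that call too.

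**Figure D4:**
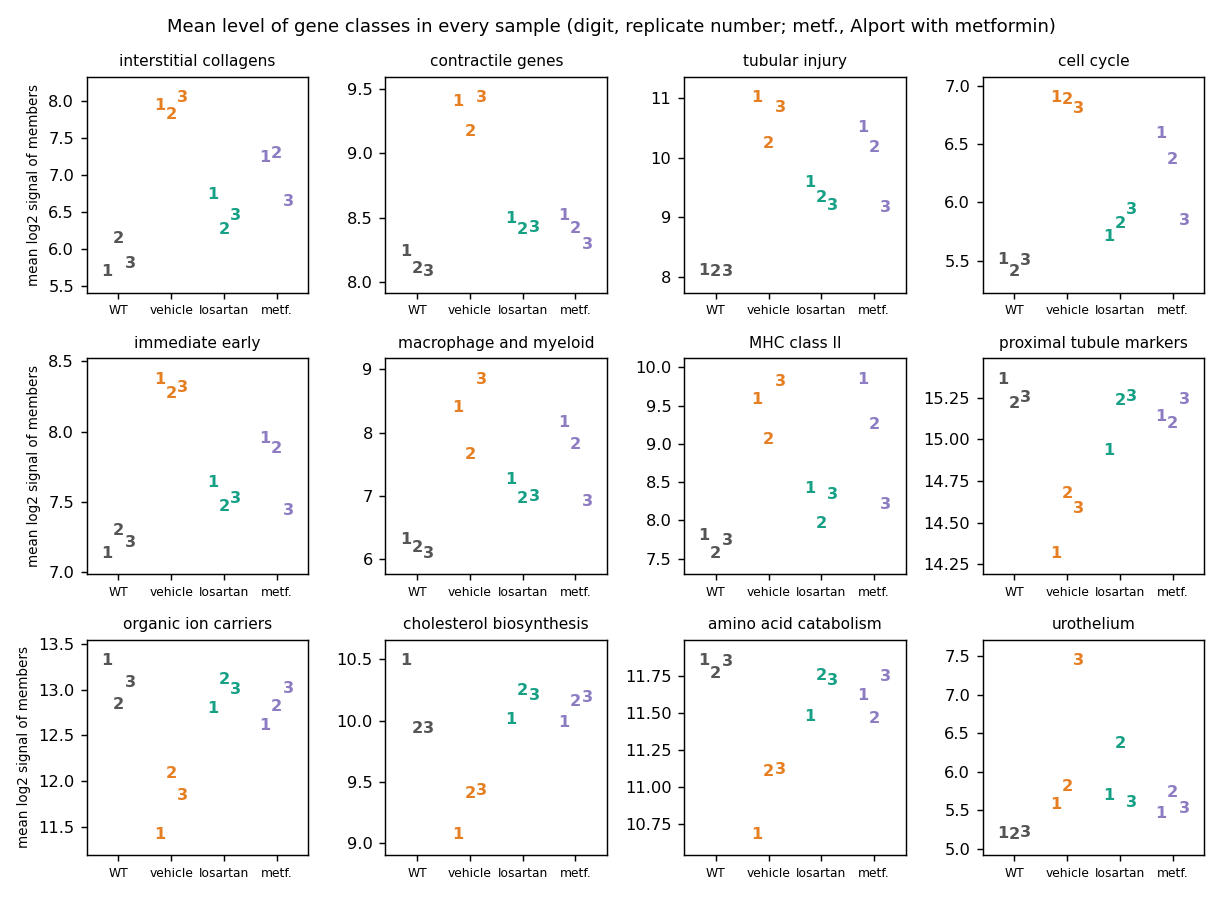
Mean log2 signal of the members of 12 gene classes (y axis) in each of the 12 samples, drawn as the replicate number, for wild type (WT), Alport with vehicle, losartan and metformin. The vehicle samples lie apart from the losartan samples for collagens (7.95, 7.83 and 8.05 against 6.74, 6.26 and 6.45), while for urothelium vehicle sample 3 is the highest and losartan sample 2 the next (5.57, 5.81 and 7.44 against 5.69, 6.36 and 5.61).

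Many cholesterol synthesis genes rose. Of 18 genes 11 rose and none fell, with a median of 0.83. Dhcr7, which catalyses the last step to cholesterol, read 7.44, 7.44 and 7.78 with vehicle, 8.83, 9.28 and 8.99 with losartan and 9.12, 8.41 and 8.40 in wild type. Drug samples were above every vehicle sample and overlapped the wild type, and the rise was 1.48 ± 0.21 (adjusted p = 0.000684). Sqle (squalene epoxidase) rose by 1.17 ± 0.20, Cyp51 (lanosterol demethylase) by 1.40 ± 0.29 and the sterol sensor partner Insig1 by 1.19 ± 0.24. The count was 5 without losartan sample 2 or vehicle sample 1 and 6 without losartan sample 3.

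Amino acid catabolism rose as 17 of 31, with 1 down and a median of 0.66. Ivd, of leucine breakdown, read 12.43, 12.58 and 12.47 with vehicle, 13.62, 14.00 and 14.02 with losartan and 14.22, 13.93 and 13.99 in wild type. It rose by 1.39 ± 0.17 (adjusted p = 0.000434). Hpd and Fah, of tyrosine breakdown, rose by 2.43 ± 0.43 and 0.98 ± 0.16, Gstz1, of the same pathway, by 1.33 ± 0.19, and Dmgdh, of choline breakdown, by 1.60 ± 0.26. Arg2, the mitochondrial arginase, went the other way and fell by 1.15 ± 0.23 (adjusted p = 0.00661). Without losartan sample 2 or vehicle sample 1, 10 and 8 rose.

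In the path from tryptophan to NAD 5 of 14 rose and 1 fell, and 4 or 5 rose with any 1 sample left out. Afmid, the kynurenine formamidase, read 10.79, 10.92 and 11.11 with vehicle, 12.38, 12.68 and 12.34 with losartan and 13.41, 12.74 and 12.87 in wild type. Kmo, the next hydroxylase, read 10.47, 10.88 and 11.15, 11.94, 12.21 and 12.28 and 12.40, 12.38 and 12.24. Afmid rose by 1.53 ± 0.21, Ido2 by 1.38 ± 0.23, Kmo by 1.31 ± 0.19 and Nmnat1, which makes NAD in the nucleus, by 1.03 ± 0.21. The faller was Nnmt, which methylates nicotinamide, at -0.91 ± 0.22 (adjusted p = 0.0184), a call lost without losartan sample 2 or vehicle sample 1 (adjusted p 0.0155 to 0.106 over all alternatives).

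Mitochondrial fuel genes rose in part. Of 24 fatty acid oxidation genes 7 rose and 1 fell, with a median of 0.46. Acadm, the medium-chain dehydrogenase, read 11.74, 12.20 and 12.63 with vehicle and 13.33, 13.27 and 13.25 with losartan, a rise of 1.09 ± 0.22 (adjusted p = 0.00733). Pdk4, which shuts off pyruvate use, fell by 0.97 ± 0.28 (adjusted p = 0.0416), a call lost without losartan sample 1 or 3 or vehicle sample 1 or 3 (adjusted p 0.0301 to 0.185 over all alternatives). The count of risers was 1, 3 and 2 without losartan sample 2, losartan sample 3 and vehicle sample 1. In the citric acid cycle 6 of 21 rose, Pdha1 by 1.12 ± 0.22 and Pcx (pyruvate carboxylase) by 1.09 ± 0.20, and 3, 2, 2 and 3 rose without losartan samples 2 and 3 and vehicle samples 1 and 3 in turn. Respiratory chain genes had 1 riser of 20, Uqcrc2 at 0.83 ± 0.24 (adjusted p = 0.0399), a call lost without any 1 losartan sample or without vehicle sample 1 or 3 (adjusted p 0.00588 to 0.175 over all alternatives). Without vehicle sample 2 the respiratory chain count was 2. In gluconeogenesis 2 of 5 rose, Pcx and the glucose 6-phosphate carrier Slc37a4 at 1.35 ± 0.21, and 4 did without vehicle sample 2. None of 12 glycolysis genes passed, although 2 fell after quantile normalization and 1 with the dimmest probe sets left out or with a trended robust prior.

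Antioxidant genes passed as 4 up and 1 down of 21, with 0 risers left without losartan sample 2 or vehicle sample 1, 1 without losartan sample 3 and 2 without vehicle sample 3. Hmox1, the inducible haem oxygenase, was the one that fell, at -0.71 ± 0.17, a call lost without losartan sample 2 or 3 or vehicle sample 2 or 3 (adjusted p 0.0106 to 0.1 over all alternatives). Clock genes rose as 4 of 16, and as 1, 2 and 1 without losartan sample 2, losartan sample 3 and vehicle sample 1. Ciart, a repressor of the clock, kept its call and rose by 1.64 ± 0.27 (adjusted p = 0.00211). The labels give no time of day for the collection of tissue, and its part in this was not tested.

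Beyond the proximal tubule few segment markers passed. Egf, made by the thick ascending limb and lost in kidney disease, read 12.46, 13.79 and 12.64 with vehicle, 14.63, 14.41 and 14.70 with losartan and 14.83, 14.88 and 15.26 in wild type. It rose by 1.62 ± 0.33 (adjusted p = 0.00778), a call lost without vehicle sample 1 (adjusted p 0.00108 to 0.0503 over all alternatives), and it was the 1 riser among 14 thick ascending limb markers. Umod (uromodulin), of the same segment, differed by -0.06 ± 0.15. None of 9 distal convoluted and connecting tubule markers and none of 14 intercalated cell markers passed, with the sodium chloride carrier Slc12a3 at 0.35 ± 0.19. Of the intercalated cell markers 2 rose without vehicle sample 2, and 1 after centring or with a trended robust prior. Of 10 principal cell markers only Fxyd4 fell, and the water channel Aqp2 differed by -0.66 ± 0.28. Among 12 genes of phosphate and vitamin D handling, Kl (Klotho) rose by 0.93 ± 0.21 (adjusted p = 0.0138), a call lost without losartan sample 2 or 3 or vehicle sample 1 or 3 (adjusted p 0.00201 to 0.0749 over all alternatives).

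In the glomerulus and vessels most markers did not pass. Of 20 podocyte markers 1 fell, Tcf21 at -1.05 ± 0.25 (adjusted p = 0.0171), lost without losartan sample 2 or 3 or vehicle sample 3 (adjusted p 0.00823 to 0.0863 over all alternatives). Of 20 endothelial markers 2 rose and 1 fell. Ehd3, of glomerular endothelium, rose by 1.03 ± 0.25 and Kdr, the VEGF receptor, by 0.72 ± 0.19. Neither passed without losartan sample 2 or vehicle sample 1 or 3 (for Ehd3, adjusted p 0.00777 to 0.0965 over all alternatives), and the call of Kdr was lost whichever of the 6 samples was left out (for Kdr, adjusted p 0.0173 to 0.109 over all alternatives). Ramp2, a co-receptor of adrenomedullin, fell by 0.95 ± 0.21 (adjusted p = 0.0112), though not without losartan sample 3 (adjusted p 0.00953 to 0.0531 over all alternatives).

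Markers of neighbouring tissue were checked. None of 7 urothelium, 9 adipocyte and 7 adrenal cortex markers passed, although 2 adipocyte markers fell without vehicle sample 2 and 1 adrenal marker fell in a fit of the 6 samples alone. In that order 4, 7 and 7 of these markers had means under every sample's median, so the check rests largely on low signal. The mean levels of the markers were 5.57, 5.81 and 7.44 with vehicle and 5.69, 6.36 and 5.61 with losartan for urothelium, and 5.44, 5.08 and 6.45 against 5.60, 5.13 and 5.05 for fat. Vehicle sample 3 was the highest in both and losartan sample 2 the next for urothelium, and the part of this in the changes above was not tested. Counts without vehicle sample 3 stand beside each class where they differ from the full count by more than 1.5 times.

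Against wild type, the losartan samples differed at few probe sets. At the same threshold 122 probe sets differed (0.549% of those tested), 89 higher (0.401%) and 33 lower (0.149%) with losartan, and 37 to 62 differed with any 1 losartan or wild-type sample left out. Vehicle-treated Alport kidney differed from the same wild-type samples at 3582 (16.1%), 1871 higher (8.43%) and 1711 lower (7.71%), or 1451 higher and 2842 lower after centring on sample medians. These comparisons share samples with the drug comparison, so values are set side by side only. The gene classes with 3 or more members above wild type in losartan kidneys held 7 proteoglycan and matricellular genes (22 with vehicle), 3 proteases and inhibitors (18), 3 interstitial collagens (10), 3 complement genes (12), 3 acute phase and fibrinogen genes (8) and 4 tubular injury genes (22). No gene of the proximal tubule, carrier, amino acid or cholesterol classes was below wild type with losartan, where 22, 19, 23 and 11 were with vehicle. A p that misses the threshold does not show equal levels.

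Against metformin, the other drug, 10 probe sets differed (0.045% of those tested), 6 higher (0.027%) and 4 lower (0.018%) with losartan. That number was 91 without metformin sample 3, 5 without losartan sample 2, and 6 without losartan sample 1 or metformin sample 1. Cyp4a12a read 9.79, 11.50 and 10.93 with metformin, and was 2.82 ± 0.33 higher with losartan (adjusted p = 0.00146). Ces1g, a carboxylesterase chosen for mention after its values were seen, read 12.22, 11.71 and 12.45 with losartan, 7.57, 5.85 and 6.23 with metformin and 10.07, 10.30 and 11.63 with vehicle. Its losartan level lay above all samples of both other Alport groups, 5.58 ± 0.43 above metformin (adjusted p = 6.8e-06).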

How the data were processed

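Total RNA of whole kidney (100 ng per sample, per the labels' protocols) was labelled and hybridised to Affymetrix Clariom S arrays. The deposited values are log2 signals of 22206 probe sets, made by the authors with Transcriptome Analysis Console 4.0, per the submitters' processing notes. Their background correction and normalization are not stated there, so they were kept as deposited. No detection calls or batch labels were used. The precision rests on 3 arrays per group.

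Samples were grouped by title. Group means were fitted over all 12 samples with limma 3.58.1 in R 4.3.3 (lmFit and eBayes, 8 residual degrees of freedom), and p-values were two-sided and adjusted by Benjamini-Hochberg over all probe sets, with a threshold of 0.05. The fit was tested on simulated data, in 10 draws with 200 of 22206 probe sets changed. Of simulated log2 changes of 0.5, 1 and 2, 5.6%, 75% and 99.6% were called, and 6.35% of calls were false. Far fewer probe sets changed there than were called in the data, so these shares need not hold for the data. Small changes can thus be missed. GEO's platform annotation gave 1 gene symbol to 19572 probe sets and none to 2634. A gene was represented by its probe set with the highest mean.

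The members and the 59 gene lists were chosen with earlier results of these data known. Of 1030 listed genes 954 were measured. The genes named are the renin-angiotensin genes, the 10 largest falls and rises without overlap, up to 4 members per class with the smallest p plus the one with the highest mean, called members that went against their class, and Col4a5. No fold is given where the lower group mean lies under every sample's lower quartile. Promoter windows are RefSeq's for GRCm38.p6. Alternatives were array weights, centring on sample medians, quantile normalization, leaving out the dimmest probe sets, the 6 samples alone, a trended robust prior, an unadjusted p with a 2-fold change, replicate number as a block, and leaving out each sample. Same-numbered losartan and vehicle samples did not deviate together (correlations 0.0117, 0.0323 and -0.0123), so the numbers were not taken as pairs.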

Additional observations from a re-analysis of the deposited data

How the results depend on the processing

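No called change between losartan and vehicle turned its sign under any of the alternatives run, but this was nearly fixed in advance. Losartan and vehicle samples did not overlap for 905 of the 913 falls and 835 of the 842 rises, so omitting 1 sample cannot turn those signs. The 6 samples alone, the trended robust prior, the omission of the dimmest probe sets and the replicate block leave the difference of group means as it is. The total of 1755 lay between 1300 and 1962 under array weights, centring, quantile normalization, omission of the dimmest probe sets, the trended robust prior and the 6 samples alone. The 6 samples alone gave 557 rises, and an unadjusted p with a 2-fold change gave 799 probe sets, 266 up and 533 down. With replicate number as a block, although the numbers do not pair the samples, 1545 changed, 715 up and 830 down. Leaving out 1 sample gave 716 to 2073 in all, 280 to 958 up and 436 to 1115 down. Against wild type the losartan totals were 37 to 62, with 31 to 54 up and 5 to 15 down. For vehicle against wild type 2549 to 3756 differed, 1419 to 1987 up and 1118 to 1769 down, and centring gave 2842 down. Against metformin 5 to 91 differed, 4 to 14 up and 0 to 77 down, with 7 down under the replicate block. The median of the 5 female-biased genes, -0.44, turned to 0.12 without losartan replicate 1 and was -0.875 without vehicle replicate 2, and the cause was not tested. Of the class counts under alternatives 1417 stayed within 1.5 times, 183 were lower and 52 higher. The 1417 include the many counts that were 0 in the main fit and stayed 0, so that number does not measure how stable the other counts were. Changes in signal near background cannot be sized, and 3 arrays per group limit small changes.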

Other observations

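For some glomerular and collecting duct genes all vehicle-treated Alport samples lay on the same side of every wild-type sample. These genes did not pass between losartan and vehicle and differed from wild type with losartan. They were picked after their values were seen. Synpo (synaptopodin), an actin-binding protein of podocyte foot processes, read 10.63, 10.52 and 10.25 with vehicle, 10.17, 10.22 and 10.28 with losartan and 8.99, 8.82 and 8.56 in wild type. Every vehicle and losartan sample lay above every wild-type sample. The losartan samples stood 1.43 ± 0.16 above wild type (limma, adjusted p = 0.000405, 0.000186 to 0.00457 over the alternatives run), while losartan minus vehicle was -0.24 ± 0.16 (adjusted p = 0.459). Insrr, the insulin receptor-related receptor that senses alkali in beta intercalated cells, read 7.09, 7.66 and 6.82 with vehicle, 7.33, 7.57 and 7.60 with losartan and 8.90, 8.70 and 9.34 in wild type. It lay below wild type in all vehicle and losartan samples, at -1.48 ± 0.23 with losartan (adjusted p = 0.0058, 0.00423 to 0.0485), and at 0.31 ± 0.23 between losartan and vehicle (adjusted p = 0.504). For Slc4a9 and Foxi1, a transporter and a transcription factor of intercalated cells, losartan minus wild type was -0.96 ± 0.18 and -0.98 ± 0.19 (adjusted p = 0.0246 for each). Those calls were less stable: Slc4a9 was lost whichever losartan or wild-type sample was left out, and Foxi1 in all such omissions but that of wild-type sample 1 (adjusted p up to 0.162 for each). Slc4a9 read 9.22, 9.37 and 9.01 with vehicle and 9.53, 9.23 and 9.30 with losartan. Foxi1 read 10.63, 10.58 and 10.06 with vehicle, 9.83, 10.16 and 10.05 with losartan and 10.83, 10.95 and 11.21 in wild type. Its losartan samples lay on average farther from wild type than its vehicle samples. All these comparisons share samples, so the values are only set side by side.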
